A study of Mus musculus with 8 samples.

Results

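The 8 genes described here, Six3, Six6, Otx1, Otx2, Rax, Lhx2, Sox2 and Mab21l1, encode transcription factors and related proteins of the optic vesicle, the retina and the ciliary margin. They were picked by gene symbol, and all 8 were found among the 23420 rows that name a gene in a table comparing mouse limbus and cornea. The limbal rim lies between cornea and sclera, holds the epithelial stem cells of the cornea and surrounds the corneal button. Both tissues came from wild type animals, C57BL/6J mice of 8 weeks by the study's methods, and eyes were pooled by tissue before the RNA was extracted. The labels number 4 samples per tissue, whereas the values of the table are built from 1 cornea library and 1 limbus library. No replicate spread was therefore available, and all intervals below cover counting error only.

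In the vertebrate embryo, a group of transcription factors marks the eye field of the anterior neural plate, from which the optic vesicle and later the retina, the retinal pigment epithelium and the inner epithelia of the ciliary body and iris arise. The epithelium of the cornea, the conjunctiva and the lens comes instead from the surface ectoderm, and the corneal stroma and endothelium come largely from neural crest. Rax, Six3, Six6, Lhx2 and Otx2 act in the neural eye field and its derivatives, Otx1 and Sox2 are shared with other ectoderm, and Mab21l1 acts in the lens and the optic vesicle.

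Normalized reads were more numerous in the limbus for 7 of the 8 genes, and in the cornea for Mab21l1. The 7 include Otx1, with a log2 ratio of only 0.10, and Six6 and Sox2, whose differences were not detectable at this depth. All genes above 3 reads in at least 1 library had a median log2 ratio of 0.01. In bulk tissue, fewer cells of a type and less RNA per cell cannot be told apart. The genes fell into scarce and plentiful members. Six3, Six6, Otx2, Rax, Lhx2 and Sox2 had 18 reads together in the cornea and 140 in the limbus. Otx1 alone supplied 72.6% of the reads of the 8 genes in the cornea and 89.9% in the limbus.

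Reads on named genes numbered 26104317 for cornea and 21182025 for limbus, and normalized reads are reads divided by size factors of 1.03 and 0.967. A gene is described as higher in a tissue where the exact Clopper-Pearson interval (95%) of its ratio, limbus over cornea, excluded 1. For this call a library with 3 reads or fewer, the limit that a count of 0 allows, was set to 3 reads, and the 15572 genes above 3 reads in at least 1 library were compared. By this rule the limbus was higher for 34.0% of these genes and the cornea for 36.5%. Scaled to total reads, which raised every log2 ratio by 0.21, the limbus was higher for 7017 genes and the cornea for 4157, against 5297 and 5681 with the size factors. Of the tissue markers, 4 of 5 for cornea and all 4 for limbus were higher in their own tissue. Krt12, the keratin of the corneal epithelium, had a log2 ratio of -2.19 and Krt15, a keratin of the limbal basal layer, one of 3.32. Slc4a11, a transporter of the corneal endothelium, was the cornea marker that was higher in the limbus, with a log2 ratio of 0.64.

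All 8 genes passed the limit of 3 reads in at least 1 library, and 4 of them did so in both. Six3, Six6, Lhx2 and Sox2 passed it in the limbus only. The rule could place these 4 in the limbus or in neither tissue, but not in the cornea. Of the 8, 5 were higher in the limbus (Six3, Otx1, Otx2, Rax and Lhx2), beside 34.0% of all genes compared, and 1 was higher in the cornea (Mab21l1), beside 36.5%. Six6 and Sox2 were higher in neither tissue by this rule. With a library of 3 reads or fewer set to 3, the median log2 ratio was 1.89, beside 0.01 for all genes compared. This setting allows only limbal ratios for Six3, Six6, Lhx2 and Sox2, so the median describes the members and tests nothing. The ratios of single genes given below use the reads as found, which are higher for Six6 and Lhx2. When the whole interval had to lie beyond a 2-fold difference, Six3, Otx2, Rax and Lhx2 remained on the limbal side, where 11.9% of all genes lay. Mab21l1 remained on the corneal side, where 4.43% of all genes lay.

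**Figure D1:**
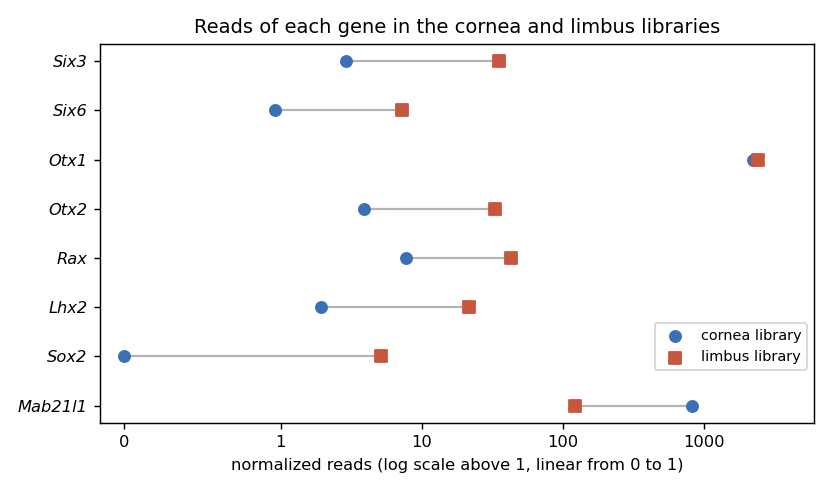
Normalized reads of the 8 genes (x axis, logarithmic above 1 and linear from 0 to 1) in the cornea library (circles) and the limbus library (squares), 1 library per tissue. Otx1 lies at 2221 and 2382 normalized reads, Mab21l1 is the one gene with its circle to the right of its square, and the other genes have at most 7.74 normalized reads in the cornea.

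Six3 and Six6 are paralogous homeodomain proteins of the Drosophila sine oculis group, and both act in the forming retina. Six3 lies on chromosome 17 from 85613608 to 85629302 in GRCm38. It was read 3 times in corneal RNA and 34 times in limbal RNA. This is a log2 ratio of 3.60 (95% CI 1.93 to 5.95), or a 12.1-fold difference with an interval from 3.81 to 61.6. Six6, on chromosome 12 from 72939892 to 72944899, was read 1 time in corneal RNA and 7 times in limbal RNA. The interval around its log2 ratio of 2.90 ran from -0.06 to 8.40, so a difference in Six6 was not detectable at this depth. The interval of Six6 contained that of Six3, and the ratios of these paralogues cannot be ordered.

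Otx1 and Otx2 are homeodomain proteins related to Drosophila orthodenticle. Otx2 specifies the retinal pigment epithelium and photoreceptors, and Otx1 takes part in the ciliary body and other anterior structures. Otx2 (chromosome 14, 48657677 to 48673819) was read 4 times in corneal RNA and 32 times in limbal RNA. The log2 ratio of Otx2 was 3.10 (95% CI 1.60 to 5.06), an 8.55-fold difference. Otx1 (chromosome 11, 21994764 to 22002897) had nearly the same number of reads in both libraries, 2296 in the cornea and 2304 in the limbus. After normalization these were 2221 and 2382, a log2 ratio of 0.10 (95% CI 0.02 to 0.18). The difference in Otx1 exceeded counting error, but its size followed the scaling, at 0.31 (log2) when scaled to total reads and 0.12 when scaled by a trimmed mean of M-values. Its reads were not fixed by the deposited mean alone, and the next closest pair, 1860 and 2712 reads, would give 0.64. The intervals of the Otx paralogues did not overlap.

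Rax, the retina and anterior neural fold homeobox gene, is needed for the optic vesicle to form. Rax lies on chromosome 18 from 65928277 to 65939787. It was read 8 times in corneal RNA and 41 times in limbal RNA, a log2 ratio of 2.45 (95% CI 1.34 to 3.76) and a 5.48-fold difference. Lhx2, a LIM homeodomain protein of the optic vesicle and of hair follicle stem cells, lies on chromosome 2 from 38339281 to 38369733. Lhx2 was read 2 times in corneal RNA and 21 times in limbal RNA, a log2 ratio of 3.49 (95% CI 1.46 to 6.63). The intervals of Six3, Otx2, Rax and Lhx2 overlapped one another, and each lay apart from that of Otx1.

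Sox2, a SoxB1 protein of neural progenitors and of the neural retina, lies on chromosome 3 from 34650405 to 34652461. No read (0) came from the cornea, which allows up to 3, and 5 came from the limbus. The lower end of the interval of its log2 ratio was -0.03. A difference in Sox2 was therefore not detectable at this depth.

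Promoters of scarce genes that were higher in the limbus are shown because the intervals of their ratios overlapped. RefSeq (GRCm38.p6) entries were at hand for 5 of the 8 genes, namely Six3, Six6, Otx2, Lhx2 and Sox2. The 250 bases before the first listed start are given in the direction of transcription for Six3 (chr17:85620584-85620833, plus strand), Otx2 (chr14:48667645-48667894, minus strand) and Lhx2 (chr2:38339031-38339280, plus strand), with capitals for a motif found.
Six3: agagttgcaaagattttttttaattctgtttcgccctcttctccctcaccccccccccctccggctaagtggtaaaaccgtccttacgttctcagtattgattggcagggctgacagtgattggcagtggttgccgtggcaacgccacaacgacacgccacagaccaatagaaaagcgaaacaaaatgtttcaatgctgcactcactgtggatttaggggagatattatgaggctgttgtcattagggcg
Otx2: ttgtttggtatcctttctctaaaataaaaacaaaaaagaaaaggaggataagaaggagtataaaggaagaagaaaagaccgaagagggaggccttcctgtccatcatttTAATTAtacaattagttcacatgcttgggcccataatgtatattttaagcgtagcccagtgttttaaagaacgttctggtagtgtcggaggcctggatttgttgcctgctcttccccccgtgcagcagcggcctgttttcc
Lhx2: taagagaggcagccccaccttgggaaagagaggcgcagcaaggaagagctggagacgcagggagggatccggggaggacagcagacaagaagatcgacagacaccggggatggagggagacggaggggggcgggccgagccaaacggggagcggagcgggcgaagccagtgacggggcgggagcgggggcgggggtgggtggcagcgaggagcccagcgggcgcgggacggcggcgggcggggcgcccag
The motifs searched on both strands were TAATTA, a core bound by many homeodomain proteins, TAATCC, the core of Otx sites, and ACAATG, which holds the core of Sox sites. The homeodomain and Otx motifs begin with the same letters. TAATTA was found once, in the Otx2 window, 141 bases before the start. It occurs in 4.90% of the 27025 promoters of this length. Otx2 has 4 promoter entries and Lhx2 has 2, of which only the first was searched. TAATCC occurs in 6.38% of promoters and ACAATG in 2969 of them, and neither was in the windows shown. The sequences also differ in base composition, with a GC content of 48.8% for Six3, 42% for Otx2 and 72.8% for Lhx2 beside a median of 52% over all promoters.

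Mab21l1, which is required for the lens and the optic cup, went the other way. It lies on chromosome 3 from 55782510 to 55785001. It was read 848 times in corneal RNA and 118 times in limbal RNA, which became 820 and 122 normalized reads. The log2 ratio of -2.75 (95% CI -3.04 to -2.47) is a 6.72-fold higher value in the cornea, with an interval from 5.54 to 8.22. The next closest pair of reads, 957 and 16, lay on the same side at -5.81. Only 0.469% of the genes compared had a lower log2 ratio than Mab21l1, whereas 96.8% had a lower one than Six3. Its paralogue Mab21l2, another gene of the optic cup, was read 4 times in corneal RNA and 17 times in limbal RNA and was higher in the limbus, by 2.18 on the log2 scale (95% CI 0.57 to 4.21). The intervals of the Mab21l paralogues did not overlap.

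**Figure D2:**
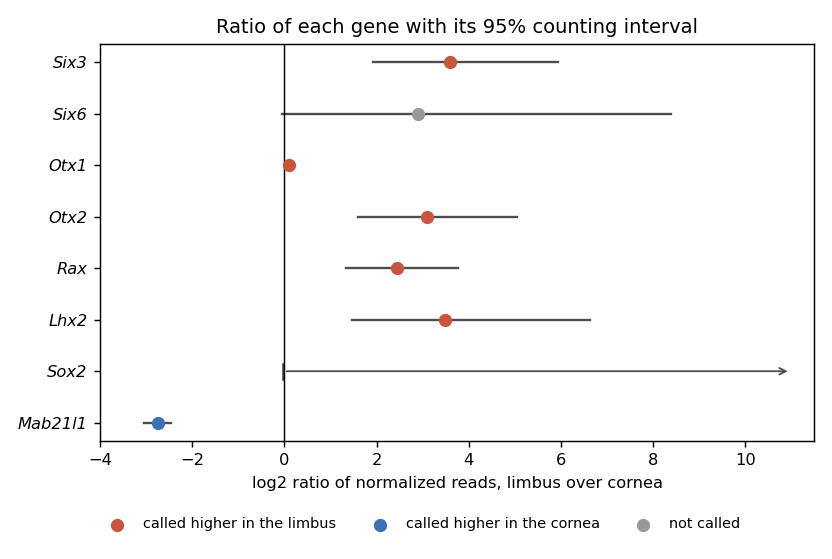
Log2 ratio of normalized reads, limbus over cornea (x axis), of the 8 genes with 95% exact counting intervals from the reads of 1 library per tissue, colored by the tissue in which the gene was higher. Sox2, with 0 reads in the cornea, is drawn as an interval open to the right from -0.03. Mab21l1 stands alone on the corneal side at -2.75, Otx1 lies at 0.10, and Six3, Otx2, Rax and Lhx2 lie between 2.45 and 3.60.

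Levels between genes were compared as normalized reads per kilobase of exon. In the cornea, Otx1 had 410 and Mab21l1 329, above 83.1% and 79.5% of the 14960 genes with a cornea read and a length. The other members had 1.32 (Rax) or less there, and their counting intervals overlapped one another. In the limbus the order was Otx1 with 439, Mab21l1 with 48.9, Otx2 with 7.84, Rax with 7.25, Six3 with 6.45, Lhx2 with 4.94, Sox2 with 2.51 and Six6 with 1.80. The levels of Otx2, Rax, Six3 and Lhx2 in the limbus did not differ beyond their counting intervals. Even in the limbus, the level of Otx2 was above only 22.9% of the 15826 genes with a limbus read and a length, and that of Six6 above 11.4%. Otx1 exceeded Otx2 by 447-fold in the cornea and by 56.1-fold in the limbus on this scale. The corneal fold is imprecise, because the level of Otx2 there, 0.92, rests on 4 reads and its interval ran from 0.25 to 2.35.

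**Figure D3:**
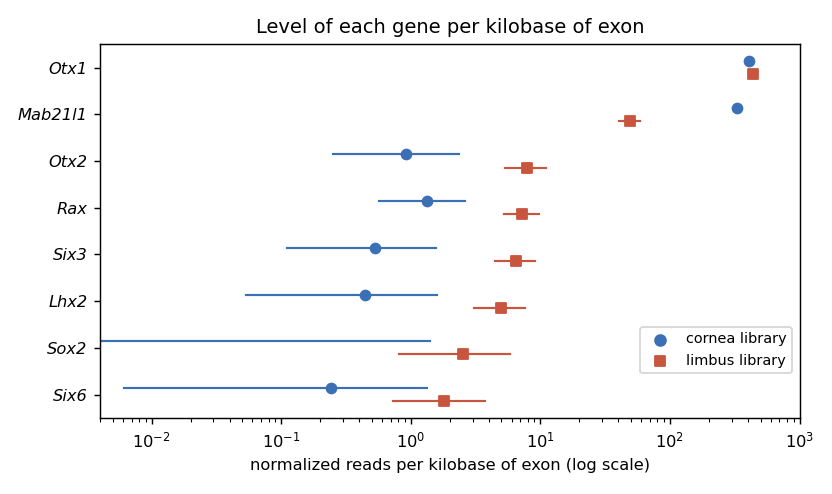
Normalized reads per kilobase of exon (x axis, logarithmic) of the 8 genes in the cornea library (circles) and the limbus library (squares), with 95% exact Poisson intervals of the reads as bars. Otx1 lies at 410 and 439, Mab21l1 at 329 and 48.9, and every other gene at 7.84 or less. The bar of Sox2 in the cornea has no point because no read was found. It ends at the set limit of 3 reads, whereas the other bars end at exact limits.

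Several members share their locus with another gene. Six3os1, transcribed from the strand opposite Six3 and overlapping it, was read 0 times in corneal RNA and 28 times in limbal RNA, and the interval of its log2 ratio began at 2.92. Sox2ot, which spans Sox2 on the same strand, also gave 0 corneal and 5 limbal reads. Otx2os1 was listed at 0 in both libraries. 4930447C04Rik, which overlaps Six6 on the opposite strand, gave 3 corneal and 4 limbal reads. Mab21l1 lies inside Nbea, on the opposite strand, and Nbea was read 983 times in corneal RNA and 865 times in limbal RNA, with an interval of the log2 ratio from -0.22 to 0.04. Nbea thus did not differ beyond counting error where Mab21l1 did. The library kit keeps strand, but the use of strand in counting is not given in the sources used here, so reads of a gene and of its partner may not have been told apart.

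Other transcription factors of the eye field and optic cup were divided between the tissues. Of 21 such genes, 12 passed the limit of 3 reads, of which 6 were higher in the limbus, 5 in the cornea and 1 in neither. By the same rule the limbus was higher for 34.0% of all genes compared and the cornea for 36.5%. Pax6, the master regulator of eye development that the adult corneal epithelium keeps, was read 18145 times in corneal RNA and 10507 times in limbal RNA, a log2 ratio of -0.69 (95% CI -0.73 to -0.66). Hes1, a Notch effector, gave 3384 corneal and 2756 limbal reads and a log2 ratio of -0.20, and Meis2, a homeodomain cofactor, gave 2712 corneal and 1810 limbal reads and a log2 ratio of -0.49. Meis1 and Nr2f2 had log2 ratios of -0.24 and -0.28. On the limbal side, Nr2f1, an orphan nuclear receptor, gave 1 corneal and 30 limbal reads, with an interval from 2.41 to 10.35. Sox9, Mitf, Tbx2 and Mab21l2 were also higher in the limbus, with log2 ratios of 0.89, 0.99, 0.55 and 2.18. Pax2, Vsx1 and Vax1 were listed at 0. The corneal calls of Hes1, Meis1 and Nr2f2 were lost when scaled to total reads, and the log2 ratio of Hes1 then crossed 0.

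Relatives and binding partners of the 8 proteins gave 21 of 24 genes above the limit. Of these, 12 were higher in the limbus, 3 in the cornea and 6 in neither, beside 34.0% and 36.5% of all genes compared in the limbus and the cornea. With a library of 3 reads or fewer set to 3, their median log2 ratio was 0.89, beside 0.01 for all genes compared. Genes above 3 reads in the limbus only could add only limbal ratios to it. Six2, a relative of Six3, was read 20 times in corneal RNA and 147 times in limbal RNA, a log2 ratio of 2.97 (95% CI 2.29 to 3.73). Six5 gave 96 corneal and 332 limbal reads, a log2 ratio of 1.89 (95% CI 1.55 to 2.23). Eya2, a phosphatase that binds sine oculis homeodomain proteins, gave 1209 corneal and 2099 limbal reads and a log2 ratio of 0.89, while Eya3 gave 1019 corneal and 958 limbal reads, or 0.01 on the log2 scale (95% CI -0.12 to 0.14). Dach1, a corepressor of the same network, was higher in the cornea, with 638 corneal and 244 limbal reads, which is -1.29 on the log2 scale (95% CI -1.51 to -1.08). Ldb1 and Ldb2 are adaptors that bind LIM homeodomain proteins such as Lhx2. Ldb1 was read 1795 times in corneal RNA and 2131 times in limbal RNA, and Ldb2 had 1 and 112. Of the Groucho corepressors, Tle1 and Tle2 had log2 ratios of 3.02 and 2.35, Tle3 had 0.33, and Tle4 was higher in the cornea with -0.53. Sox21 lay at -0.34, a call that was also lost under total reads. Crx, the photoreceptor relative of Otx2, gave 18 corneal and 104 limbal reads, or 2.63 on the log2 scale (95% CI 1.90 to 3.44). Sox1 and Sox3, the nearest relatives of Sox2, were listed at 0.

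Markers of other tissues of the eye were counted by the same rule, by which 34.0% of all genes compared were higher in the limbus. Of 14 photoreceptor markers, 13 were higher in the limbus and 1 in neither. Their normalized reads summed to 723 for cornea and 6825 for limbus, a 9.44-fold difference, and none was at 0. Gnat1, the rod transducin subunit, was read 160 times in corneal RNA and 1506 times in limbal RNA, a log2 ratio of 3.33 (95% CI 3.09 to 3.57). Of 6 retinal pigment epithelium markers, 5 were higher in the limbus, with sums of 161 and 1113, and Ttr, the retinol carrier transthyretin, gave 72 corneal and 640 limbal reads. Of 8 pigment cell markers, 7 were higher in the limbus, with sums of 312 and 1699. For the ciliary epithelium, 6 of 7 markers were in the table, of which 3 were higher in the limbus and 3 in neither, with sums of 50.3 and 219. Optc, the opticin secreted by the ciliary body, gave 16 corneal and 87 limbal reads, and Best2, a channel of its inner layer, gave 21 corneal and 34 limbal reads with an interval of the log2 ratio from -0.04 to 1.65. Of 10 inner retina markers, 4 were higher in the limbus, 3 were in neither and 3 were at or under 3 reads in both libraries, with Pou4f2 and Slc17a6 listed at 0 and sums of 742 and 1492. Most reads of this list came from Trpm1, with 347 corneal and 535 limbal reads, and Rbpms, with 385 and 674, at log2 ratios of 0.72 and 0.90. All 7 lens markers above the limit were higher in the limbus, with sums of 1003 and 8554, and Foxe3 was listed at 0. Mab21l1 lay on the other side from all 7 lens markers. The part of these tissues in the values of Six3, Otx2, Rax, Lhx2 and Mab21l1 was not tested.

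**Figure D4:**
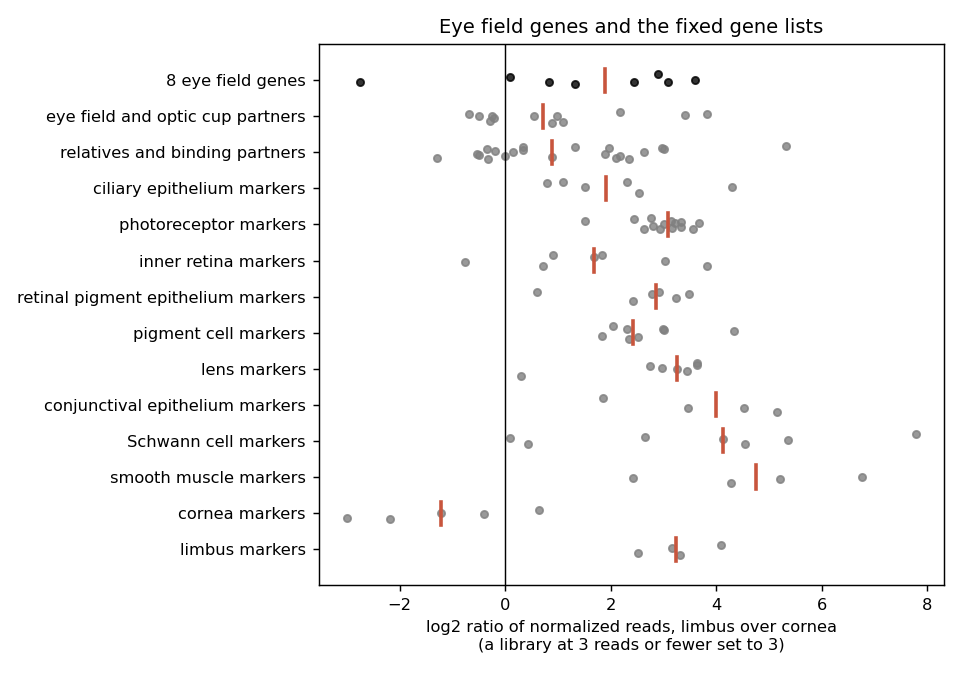
Log2 ratio of normalized reads, limbus over cornea (x axis), of each gene above 3 reads in at least 1 library, for the 8 eye field genes (black) and each gene list (gray), with a library of 3 reads or fewer set to 3 and the median as a vertical bar. A gene above 3 reads in only 1 library can lie only on the side of that library. The median is 1.89 for the 8 genes, 3.09 for photoreceptor markers, 3.26 for lens markers, 1.91 for ciliary epithelium markers and -1.22 for cornea markers.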

How the data were processed

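Limbal rims and corneal buttons were pooled by tissue, and the authors mapped adaptor-trimmed reads to mouse GRCm38 (mm10). The authors deposited a mean normalized signal per gene over the libraries, which is reads divided by size factors. The table also holds p-values and log2 fold changes with standard errors that the authors deposited. The fold changes and errors were used only to choose read pairs, the p-values were not used, and none is printed. Of 40904 rows, 17484 name no gene and were left out.

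Each of the 17442 means above 0 is a whole combination of cornea and limbus reads, with 109 cornea reads worth 102 limbus reads. Reads are thus derived values. The mean alone fixed them for 6143 genes, among them 6 of the 8 members. Otherwise the pair was taken whose log2 fold change, predicted by a shrinkage model with the dispersion set by the standard error, came closest to the deposited one (within 0.001 for 17441 genes). For 66 genes with several close pairs, the dispersion of like genes decided. For Otx1 the next pair missed by 0.0109 and for Mab21l1 by 0.478. The method was tested on simulated data, where the reads of 17049 genes were all found. The simulated fold changes and errors were made with the same model that the method inverts, and the reads varied by counting error only. In that simulation, 75 of 76 genes made to change by 1 on the log2 scale had the right call. The genes made to change all had higher means than Six3, Six6, Otx2, Lhx2 and Sox2. The simulation therefore does not show how often the calls are right for these scarce members.

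With 1 library per tissue, no test across replicates was made. Members, lists and the rule for named genes (all members, genes overlapping them, and in each list the genes with the most reads or largest ratios) were chosen with earlier results of these data known. Some list genes that the rule covers are not reported here by name. Exon lengths and positions are from GENCODE M21 (GRCm38). Alternatives were scaling to total reads, a trimmed mean of M-values, a pseudocount of 1, a floor of 10 reads, a 2-fold limit, a mean of at least 10 and the next read pair. The calculations used Python 3.11.15, numpy 2.4.6, scipy 1.17.1, pandas 2.3.3 and scikit-learn 1.9.0.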

Additional observations from a re-analysis of the deposited data

How the results depend on the processing

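The 5 members higher in the limbus and the 1 higher in the cornea kept these counts under total reads, the trimmed mean of M-values and a floor of 10 reads. With intervals beyond a 2-fold difference, Six3, Otx2, Rax and Lhx2 (4 members) remained limbal and Mab21l1 remained corneal, while the counts over all genes fell to 1856 and 690 and those over the genes of the fixed lists on the corneal side from 12 to 4. The median log2 ratio of the members lay between 1.89 and 2.47 over the scalings and the pseudocount. Under total reads the tissue with more calls over all genes changed, to 7017 in the limbus against 4157 in the cornea. The next read pair would give log2 ratios of 0.64 for Otx1 and -5.81 for Mab21l1. No paired analysis was possible because the table holds no column per numbered sample, and for the same reason no replicate could be left out. Depth limits Six6 and Sox2, with 8 and 5 reads over both libraries.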

Other observations

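Markers of tissues around the limbus that do not come from the neural eye field were also read. They were counted by the same rule, by which 34.0% of all genes compared were higher in the limbus. All 4 conjunctival markers above 3 reads (keratins, led by Krt13, Krt4 and Krt19) were higher in the limbus, with summed normalized reads of 39264 in the cornea and 246407 in the limbus, whereas the goblet cell mucin Muc5ac had 1 read in each library and Muc5b was listed at 0. All 7 Schwann cell markers were higher in the limbus, with a median log2 ratio of 4.14. Their summed normalized reads were closer, at 6874 in the cornea and 9908 in the limbus. Most of these reads came from Mbp, with a log2 ratio of 0.44, and Erbb3, a neuregulin receptor, which had the smallest at 0.08. All 4 smooth muscle markers were higher in the limbus, and Acta2, the smooth muscle actin, was read 40 times in corneal RNA and 730 times in limbal RNA. All 4 limbus markers were higher in the limbus, with a median log2 ratio of 3.25.

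With a library of 3 reads or fewer set to 3, the median log2 ratio of the 8 members was 1.89. Among the genes of the fixed lists above 3 reads, those nearest to this median at the same setting included Six5, Krt13, Grm6 and Oca2. Each likeness rests on 1 ratio between 1 pair of libraries. Grm6, a glutamate receptor of bipolar cells, and Oca2, a melanosome protein, had 10 reads each in the limbus and did not differ beyond counting error with the cornea set to 3 reads. At that setting both lay at 1.83 on the log2 scale, whereas the reads as found gave 3.42 for Grm6 and 2.42 for Oca2. Their nearness to the median thus depends on the setting.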
